A study of Mus musculus with 96 samples.

Results

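CRY1 and CRY2 are the cryptochromes, the proteins that close the negative arm of the circadian clock. Mice with both genes knocked out and mice with both intact were compared under one feeding regimen, in which food was given at night. The comparison held 24 of the 96 liver mRNA libraries of the series. They were 12 labelled genotype Cry1/2_dKO and regimen RF (night restricted feeding), called knockout below, and 12 labelled Cry1/2_WT and RF, called wild type. Libraries belonged to it by genotype and regimen alone, and no measured value was used to choose them. All mice were 12 to 16 weeks old. Livers were sampled at ZT0, 4, 8, 12, 16 and 20 (zeitgeber time, in h from lights on), with 2 libraries per group and time. In each group the titles gave 2 replicate series of 6 libraries, numbered 3 and 5 in the knockout and 6 and 9 in the wild type. The labels used here give neither sex nor strain, and say nothing on which animal a library came from, so each p-value reflects how far the libraries spread. For 2 side comparisons, 12 libraries each of Cry1/2_dKO and Cry1/2_WT fed ad libitum (AL) and 12 each of the Bmal1 KO and Bmal1 WT mice under RF were drawn on.

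In the clock, BMAL1 with CLOCK or NPAS2 binds E-box sequences and switches on the Per and Cry genes, whose proteins then block the same activators. A second loop runs through the nuclear receptors REV-ERB (Nr1d1, Nr1d2) and ROR, which respectively repress and activate Arntl, the gene of BMAL1. E-box driven factors such as DBP and TEF pass the rhythm on to liver enzymes through D-box sequences, while meals impose a rhythm of their own on lipid, glycogen and heat shock genes.

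Total counts ran from 1478963 to 31826439 per knockout library and from 5029979 to 31566071 per wild-type library, with medians of 24737296 and 26804427. The libraries under 1e+07 counts were 4 in the knockout, namely both at ZT4 and both at ZT12, and 1 in the wild type at ZT0. Levels are in CPM, read counts normalised by the TMM-adjusted library size. Alb, the albumin gene and a defining hepatocyte transcript, ran from 26250 to 79790 CPM in wild type and from 63400 to 96830 CPM in knockout. Some libraries stood apart. The wild-type library of series 6 at ZT12 held 21930 CPM of the acute phase gene Saa1, which was 91.5% of that group's sum. Knockout libraries of series 5 held 252 CPM (ZT4) and 42.8 CPM (ZT8) of Ctrb1, a pancreatic digestive enzyme, whose level in all wild-type libraries was at most 0.0674 CPM. The main counts of mean-level calls, rhythms and differences between effects are also given without these libraries. Counts within lists are given without them only where stated.

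The genes under study came first. Cry1 (ENSMUSG00000020038, mm10 chr10:85131700-85185064) had a level of 6.33, 28.8 and 71.4 CPM (lowest, median and highest of 12 libraries) in wild type and 5.88, 9.75 and 12.7 CPM in knockout. Cry2 (ENSMUSG00000068742, chr2:92403646-92434043) stood at 21.9, 40.1 and 60.7 CPM in wild type and at 13.1, 22.8 and 32 CPM in knockout. Both ranges overlapped between genotypes. The knockout libraries of Cry1 lay at the low end of the wild-type range, and those of Cry2 in its lower part and below it. On the mean over the 6 times Cry1 fell by 1.31 ± 0.12 on the log2 scale (SE, adjusted p = 2.55e-12) and Cry2 fell by 0.83 ± 0.09 (adjusted p = 3.91e-10). The deposited counts are 1 value per gene, and reads from exons outside any deletion may enter them, so these values are no check of the deletions. Here and below adjusted p are from edgeR's quasi-likelihood test and the Benjamini-Hochberg method over 15772 genes, fold changes are knockout over wild type with equal weight on each time, and a gene is said to have risen or fallen at an adjusted p under 0.05.

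The E-box CACGTG, the DNA motif read by BMAL1 and its partners, lies just upstream of several clock genes described next. The bases below come from RefSeq (GRCm38.p6), read 5′ to 3′ on the strand of the gene, with each E-box in capitals. The first is from Ciart (chr3:95882265-95882294, minus strand), the second from Per1 (chr11:69098771-69098800, plus strand), the third from Bhlhe41 (chr6:145865559-145865588, minus strand) and the fourth from Cry1 (chr10:85185097-85185126, minus strand).
Ciart: gggggaggCACGTGcagaaccgCACGTGtc
Per1: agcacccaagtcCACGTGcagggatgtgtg
Bhlhe41: ggatggtacgttccgCACGTGagctgggtg
Cry1: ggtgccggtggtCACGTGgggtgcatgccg

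Ciart, Per1 and Bhlhe41 rose in the knockout, and Cry1, itself a gene knocked out, fell. Over the 250 bases upstream of the start, CACGTG was found in 6.86% of all 27025 promoters in the table, in 9.57% of the promoters of tested genes, in 10.7% of the 394 of genes that rose and in 8.67% of the 346 of genes that fell. A match describes letters in a window and is not evidence of binding.

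The activators differed from each other. Npas2 (ENSMUSG00000026077, chr1:39193731-39363236), which encodes a partner of BMAL1, stood at 0.0827, 1.17 and 19.6 CPM in wild type and was listed at 0 in 10 of 12 knockout libraries, with a highest value of 0.0417 CPM. That was 2 counts in all knockout libraries together against 1477 in wild type, and the ranges did not overlap. Arntl had the same mean level in both genotypes within error (0.02 ± 0.13, adjusted p = 0.973), but not the same day. Its wild-type means at the 6 times from ZT0 were 33.8, 29.5, 2.22, 1.5, 14.7 and 32.4 CPM, and its knockout means were 7.45, 11.3, 11, 10.2, 13.1 and 13.4 CPM. It was thus lower in the knockout at ZT0 (log2 difference −2.18) and higher at ZT8 (2.31) and ZT12 (2.77), and each of these passed the test at that time. Clock, the third activator, averaged −0.20 ± 0.13 (adjusted p = 0.442).

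The Per genes, which encode partners of the cryptochromes, all rose. Per1 stood at 1.47, 28.6 and 89.1 CPM in wild type and at 50.7, 74.2 and 128 CPM in knockout, and rose by 2.17 ± 0.25 (adjusted p = 2.32e-09). The knockout libraries overlapped the upper part of the wild-type range. Per3 rose by 1.78 ± 0.15 and Per2 by 0.90 ± 0.17. Since log levels were averaged, a gene with deep troughs in wild type can rise by this measure without passing its wild-type peak.

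The REV-ERB genes of the second loop rose too. Nr1d1 went from 1.28, 14.8 and 148 CPM in wild type to 26.5, 39.8 and 55 CPM in knockout and rose by 1.46 ± 0.16. All knockout libraries lay well within the wild-type range, above its troughs and below its peak. Nr1d2 rose by 1.19 ± 0.15. Rora, which encodes an activator at the same elements, did not pass the test (0.01 ± 0.11, adjusted p = 0.984).

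Of the genes that REV-ERB represses and ROR activates (7 on the list, 7 tested), 3 fell and 0 rose, with a median log2 fold change of −0.40 against −0.03 over all genes tested. Over all genes tested 3.28% rose and 3.02% fell, and the counts of every list below are to be read against these shares. Those 3 were Npas2, Cry1 and Pla2g12a, a secreted phospholipase gene, which went from 6.15, 12.1 and 21.2 CPM to 1.96, 5.64 and 7.09 CPM (−1.40 ± 0.17). Cry1 and Npas2 are themselves counted above, so the list is not separate from the core clock. Cry1 is also a gene knocked out here, so its fall is no evidence on how the list responds, and the median includes it. Nfil3, the repressor at D-boxes, had a mean difference of −0.40 ± 0.15 (adjusted p = 0.0853), and at ZT0 alone it fell by 1.86.

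The PAR bZIP output factors and the E-box repressors rose. Dbp (chr7:45705088-45710203) stood at 0.337, 8.2 and 143 CPM in wild type and at 47.6, 57.9 and 78 CPM in knockout, and rose by 2.80 ± 0.20 (adjusted p = 1.11e-15). Its wild-type range spanned far more than the knockout range and enclosed it. Tef rose by 0.99 ± 0.08 and Hlf by 0.45 ± 0.10. Ciart, a repressor of BMAL1 and CLOCK, went from 0.181, 10.9 and 42.1 CPM to 28.7, 43.5 and 60.4 CPM and rose by 3.12 ± 0.22 (adjusted p = 1.72e-16). Bhlhe41 rose by 2.38 ± 0.25 and Bhlhe40 by 0.94 ± 0.15, and both encode repressors that compete for E-boxes. Of the PER, PAR bZIP and E-box repressor genes, Per2 and Hlf were not called with the series as a random effect or without ZT4, ZT12 and the shallow library at ZT0.

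**Figure D1:**
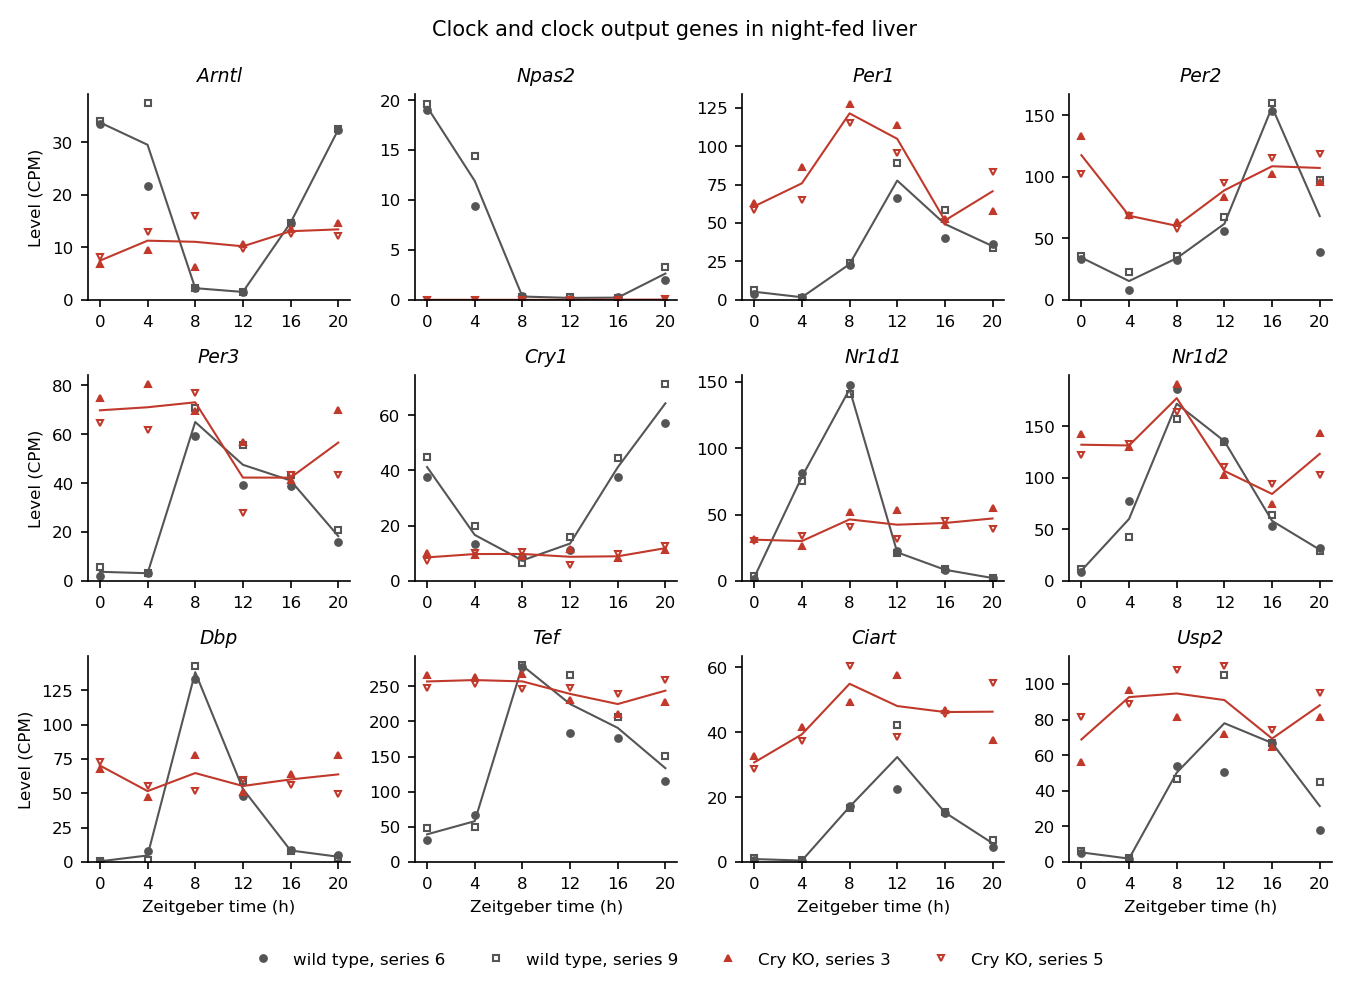
Level in CPM (vertical axes) of 12 clock genes against zeitgeber time in h (horizontal axes), with 1 point per library and lines through the means of each time, wild type in grey (series 6 and 9) and knockout in red (series 3 and 5). Dbp ranges from 0.337 to 143 CPM in wild type and from 47.6 to 78 CPM in knockout, and Arntl crosses from below the wild type at ZT0 to above it at ZT12.

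Among 13 clock output genes 8 rose (3.28% over all genes tested) and 0 fell (median 0.70). Usp2, a deubiquitinase gene, went from 1.56, 45.7 and 105 CPM to 56.4, 81.4 and 110 CPM and rose by 2.00 ± 0.19. Wee1, the kinase that holds back mitosis, went from 1.77, 11.4 and 25.9 CPM to 19.1, 26.9 and 32.4 CPM and rose by 1.42 ± 0.17. Noct, the nocturnin gene, rose by 1.70 ± 0.33 and Nampt, the rate-limiting enzyme of NAD salvage, by 0.36 ± 0.10. With the replicate series as a random effect in limma-voom, 2 of the 13 rose. Of 8 clock kinase and ubiquitin ligase genes only Fbxl21 passed the test (−0.50 ± 0.14), and it did not pass without the 2 knockout libraries rich in Ctrb1.

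D-box sequences (TTATGTAA or TTACGTAA, searched on both strands) were found upstream of Per3 and Coq10b, both of which rose. The 250 bases before the start of Per3 (chr4:151044666-151044915, minus strand), of Tef (chr15:81811164-81811413, plus strand, the second of its annotated starts) and of Coq10b (chr1:55052520-55052769, plus strand) are shown with D-boxes and E-boxes in capitals. Per3 has D-boxes and no CACGTG, Tef has an E-box and no D-box, and Coq10b, a coenzyme Q gene of the clock output list, has both, its D-box TTACATAA being TTATGTAA read on the other strand.
Per3: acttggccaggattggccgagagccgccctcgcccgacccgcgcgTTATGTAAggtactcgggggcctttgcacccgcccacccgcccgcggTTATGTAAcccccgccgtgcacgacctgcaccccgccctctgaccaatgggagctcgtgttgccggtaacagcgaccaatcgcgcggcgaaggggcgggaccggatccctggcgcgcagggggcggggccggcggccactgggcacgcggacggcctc
Tef: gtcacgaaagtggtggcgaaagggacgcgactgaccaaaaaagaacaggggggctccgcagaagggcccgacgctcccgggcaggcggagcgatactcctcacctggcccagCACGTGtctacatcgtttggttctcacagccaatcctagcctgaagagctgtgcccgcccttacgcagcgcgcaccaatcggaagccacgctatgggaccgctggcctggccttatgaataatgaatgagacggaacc
Coq10b: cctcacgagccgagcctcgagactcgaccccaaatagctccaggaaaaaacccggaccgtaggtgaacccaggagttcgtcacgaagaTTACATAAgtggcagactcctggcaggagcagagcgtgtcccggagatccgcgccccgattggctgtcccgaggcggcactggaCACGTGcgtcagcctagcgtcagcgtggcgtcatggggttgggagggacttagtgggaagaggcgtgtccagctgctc

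Coq10b went from 9.02, 28.6 and 95 CPM to 37.8, 43.4 and 58.5 CPM and rose by 0.71 ± 0.14. Either D-box was found in 1.1% of all promoters in the table, in 0.822% of those of tested genes, in 3.81% of those of genes that rose and in 1.16% of those of genes that fell. These shares are a description with no test.

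Across the transcriptome 994 of 15772 genes (6.3%) changed in mean level, of which 518 rose (3.28%) and 476 fell (3.02%). At least 2-fold changes were seen in 301 of them (1.91% of genes tested), 155 higher (0.983%) and 146 lower (0.926%). The direction was the same at all 6 times in 612 of the 994, or 61.6% (9.31% over all genes tested), which is a description only, since the 994 were called on the mean over those times. In 42 genes (0.266%) the 12 knockout libraries did not overlap the 12 wild-type libraries, 29 higher and 13 lower. The number of calls depended on the libraries. It was 377 without knockout series 5, 542 without wild-type series 6, 599 without the 2 libraries rich in Ctrb1 and 430 without ZT4, ZT12 and the shallow library at ZT0. With the series as a random effect in limma-voom 162 genes were called, and all 162 were among the 994.

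Outside the clock, the genes with the most separate ranges were of several kinds. Smpdl3b (ENSMUSG00000028885, chr4:132732966-132757252), a membrane phosphodiesterase gene, stood at 0.254, 0.482 and 0.827 CPM in wild type and at 11.1, 14.9 and 21.7 CPM in knockout, and rose by 5.09 ± 0.20 (adjusted p = 7.1e-27). Cyfip2 (ENSMUSG00000020340, chr11:46193850-46312859), whose protein is part of the WAVE complex that controls actin, went from 1.37, 2.17 and 5.88 CPM to 28.3, 58.1 and 115 CPM and rose by 4.73 ± 0.21 (adjusted p = 1.76e-24). In both the lowest knockout library lay well above the highest wild-type library. Nup62cl, a nucleoporin-like gene (4.52 ± 0.39), and Mthfd1l, the mitochondrial formyltetrahydrofolate synthetase gene (3.47 ± 0.30), also rose without overlap. The range of Vac14, which scaffolds the kinase of a vesicle lipid, went from 19.4, 24.4 and 39.1 CPM to 46.4, 54.5 and 82.7 CPM, with a rise of only 1.13 ± 0.07 but an adjusted p of 5e-18.

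Nat8 and Nat8f7, neighbouring N-acetyltransferase genes, rose by 2.68 ± 0.23 and 4.01 ± 0.45 without overlap. Within 1 Mb of Nat8 on chromosome 6, 10 of 38 tested genes changed (26.3%), 6 higher and 4 lower. Within 1 Mb of the zinc finger gene Zfp979 (4.33 ± 0.45) on chromosome 4, 4 of 26 changed (15.4%). Both windows were chosen after the values were seen. Within 10 Mb of Cry1 20 of 260 tested genes changed (7.69%), and within 10 Mb of Cry2 5 of 87 (5.75%), close to the share over all genes. Copies in these families are similar in sequence, and how reads shared between them were counted is not given in the sources used here, which also holds for the Raet1, Mup, Cyp2c, Gsta, Ugt1a and Ugt2b genes below.

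Among the genes that fell, Ddah1 (ENSMUSG00000028194, chr3:145758675-145894277), which breaks down the nitric oxide synthase inhibitor dimethylarginine, stood at 61.4, 122 and 195 CPM in wild type and at 8.76, 23.8 and 41.5 CPM in knockout. It fell by 2.30 ± 0.21 (adjusted p = 2.33e-12) without overlap. Hsd17b6, a steroid dehydrogenase gene, went from 70, 144 and 371 CPM to 16.3, 43.3 and 69.8 CPM and fell by 2.04 ± 0.30, its ranges just apart. Chic1 fell by 2.48 ± 0.19 and the fatty acid binding protein gene Fabp5 by 1.84 ± 0.35, with overlap in both. Loxl4, a lysyl oxidase gene, fell by 2.51 ± 0.29, Mup2, a major urinary protein gene, by 2.16 ± 0.23, and the selenium-binding protein gene Selenbp2 by 2.21 ± 0.41.

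**Figure D2:**
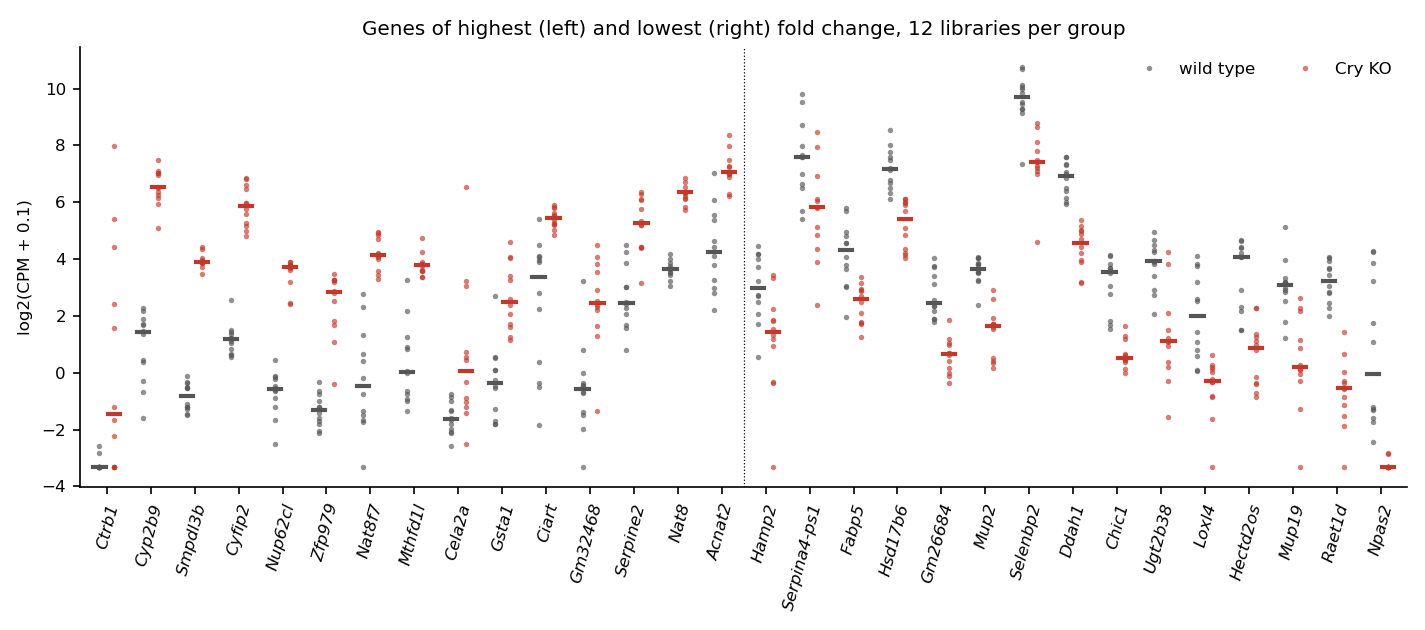
Level on the log2(CPM + 0.1) scale (vertical axis) of the 15 called genes with the highest (left) and the 15 with the lowest fold change (right) at 5 CPM or more in the higher group, 1 point per library (12 a group, wild type grey and knockout red) and bars at the medians. Smpdl3b, Cyfip2 and Cyp2b9 show separate groups, while Ctrb1 and Cela2a have high values in a few knockout libraries.

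Among genes of drug handling, calls went both ways and depended on the fit. Cyp2b9 (ENSMUSG00000040660, chr7:26173411-26210661), a cytochrome P450 gene, stood at 0.235, 2.58 and 4.76 CPM in wild type and at 34.1, 92.3 and 181 CPM in knockout, and rose by 5.53 ± 0.61 (adjusted p = 1.04e-09) without overlap. Of 11 drug metabolism genes counted as targets of the PAR bZIP factors 4 rose and 0 fell (median 0.49), with 1 called when the series was a random effect. They were Cyp2b9, Cyp2c29 (0.71 ± 0.16), Cyp2c50 (0.68 ± 0.15) and Cyp3a11, the main steroid and drug hydroxylase of this tissue. Cyp3a11 ran from 2039 to 6025 CPM in wild type and from 6301 to 14412 CPM in knockout, so its ranges just missed each other (0.95 ± 0.25). Without the libraries rich in Ctrb1 3 of the 11 were called, and without ZT4, ZT12 and the shallow library at ZT0 1 was.

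The Cyp2c list had 4 of 13 higher and 0 lower (median 0.12), and none of them was called without ZT4, ZT12 and the shallow library at ZT0. Cyp2c37 rose by 0.95 ± 0.21. Of 6 tested Cyp4a genes, which hydroxylate fatty acids, 2 rose and 0 fell, and their ranges did not overlap. Cyp4a10 went from 15.7, 291 and 490 CPM to 558, 1028 and 1451 CPM (1.76 ± 0.44) and Cyp4a14 rose by 2.17 ± 0.61. None of the Cyp4a calls was made without those times either, and with the series as a random effect 0 genes of the Cyp2c and Cyp4a lists were called. Of 26 PPARA target genes, which include those 2, 5 rose and 0 fell, among them Acot2, a mitochondrial acyl-CoA thioesterase gene (0.92 ± 0.25), at a median of 0.06. That count was 2 without those times and 0 with the series as a random effect.

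Conjugating enzymes went both ways. Of 22 glutathione S-transferase genes 6 rose and 2 fell (median 0.35), and with the series as a random effect 2 rose and 1 fell. Gsta1 rose by 3.21 ± 0.44, Gsta2 by 1.75 ± 0.30 and Gsta4 by 1.15 ± 0.17, whereas Gstm7, whose ranges did not overlap, fell by 0.76 ± 0.13. Of 20 genes driven by the oxidative stress factor NRF2, some of which are the same Gsta genes, 6 rose and 0 fell (median 0.35), including Tkt, a pentose phosphate enzyme that went from 90.3, 109 and 122 CPM to 133, 157 and 241 CPM (0.61 ± 0.10), and the quinone reductase gene Nqo1 (0.80 ± 0.18). Without the libraries rich in Ctrb1 3 of the 20 rose, and with the series as a random effect 2 did. Among 17 UDP-glucuronosyltransferase genes 3 rose and 3 fell (median 0.03), of which 1 and 1 were called with the series as a random effect. Ugt1a9 rose by 1.70 ± 0.21 from 10.7, 70.4 and 95.8 CPM to 137, 220 and 245 CPM, and Ugt2b37 fell by 2.70 ± 0.40, both without overlap. The esterase genes Ces1g (1.10 ± 0.15) and Ces1d (1.09 ± 0.21) and the retinal dehydrogenase gene Aldh1a1 (1.06 ± 0.16) rose, and Ces3b fell by 0.59 ± 0.15. Ces1d and Ces3b were not called with the series as a random effect. Of 10 tested sulfotransferase genes 0 rose and 1 fell, and of 7 genes for xenobiotic receptors and their partners 0 were called.

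In lipid synthesis 5 of 22 genes rose and 0 fell (median 0.36). Fasn, which builds palmitate, went from 196, 560.3 and 1745 CPM to 207, 1180.4 and 4297 CPM and rose by 1.01 ± 0.25 (adjusted p = 0.00569), with wide overlap. Thrsp, a lipogenic regulator, rose by 1.12 ± 0.29, Acly, the citrate lyase gene, by 0.73 ± 0.22 and Elovl5, a fatty acid elongase gene, by 0.63 ± 0.15. Without the 2 libraries rich in Ctrb1 1 of the 22 rose, and without ZT4, ZT12 and the shallow library at ZT0 or with the series as a random effect 0 did. Of 24 cholesterol synthesis genes 3 rose and 0 fell, and 0 were called without the libraries rich in Ctrb1. Lss, the lanosterol synthase gene, was one of the 3 (0.74 ± 0.17). G6pc, the last enzyme of glucose release, rose by 0.85 ± 0.23, and Ppp1r3b, which brings a phosphatase to glycogen, by 0.94 ± 0.22. With the series as a random effect 0 genes of the cholesterol, gluconeogenesis and glycogen lists were called.

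Of 20 interferon response genes 0 rose and 5 fell, and none of the 20 had a positive fold change (median −0.51). Irf7, the regulator of interferon genes, went from 17.2, 30.8 and 53.2 CPM to 13, 16.1 and 23.8 CPM and fell by 0.97 ± 0.25 (adjusted p = 0.00772). Rsad2, the antiviral viperin gene, fell by 0.95 ± 0.23 and Ifi44 by 1.32 ± 0.35. Without the library rich in Saa1 3 of them were called, and without the libraries rich in Ctrb1, without ZT4, ZT12 and the shallow library at ZT0, or with the series as a random effect 0 were. Of 10 Kupffer cell markers 0 were called, but only 1 had a positive fold change (median −0.24). Their summed level was 119 to 1230 CPM in wild type and 178 to 662 CPM in knockout, and their part in this result was not tested. In bulk liver, fewer cells of a type and less RNA per cell cannot be told apart.

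Of 23 acute phase genes 0 rose and 2 fell, and none had a positive fold change (median −0.48). They were Saa4 (−1.04 ± 0.29) and the fibrinogen gene Fgb (−0.50 ± 0.16), and 1 of them was called without the library rich in Saa1. Neither was called without ZT4, ZT12 and the shallow library at ZT0 or with the series as a random effect. The MHC and natural killer ligand list had 4 of 10 lower and 0 higher (median −0.33). In it Raet1d, a ligand of an activating receptor of natural killer cells, went from 3.91, 9.47 and 16.7 CPM to 0, 0.587 and 2.6 CPM (−3.76 ± 0.51) without overlap, and Raet1e (−2.61 ± 0.49) and the class I gene H2-Q1 (−1.82 ± 0.38) fell likewise. None of the 4 was called with the series as a random effect.

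In the cell cycle list (18 genes) 3 rose and 1 fell. Ccne1, the cyclin that drives entry into S phase, went from 0.198, 0.983 and 3.17 CPM to 2.25, 3.28 and 5.2 CPM and rose by 1.63 ± 0.26. Cdkn1a, the cyclin-dependent kinase inhibitor p21, fell by 1.75 ± 0.30. With the series as a random effect 2 genes of this list rose and 0 fell. Of 24 male-biased liver genes 2 rose and 3 fell, and of 19 tested female-biased genes 3 rose and 2 fell. With the series as a random effect 0 of the male-biased genes were called, and 1 female-biased gene, which rose. Cyp2a4 counts among those that fell, but 280 of its wild-type CPM came from the library of series 6 at ZT20, and the next highest library held 12.8 CPM. In the lists for the growth hormone axis (15 genes), the unfolded protein response (19), the urea cycle with amino acid catabolism (22), heat shock with cold-inducible genes (15) and Kruppel-like factors (8), no gene was called.

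Of 12 exocrine pancreas markers 3 could be tested and 2 of them, Ctrb1 and Cela2a, rose. Their summed level was 5.83 to 28.5 CPM in wild type and 12.4 to 495 CPM in knockout, and the 9 others had too few counts to test. Without the 2 knockout libraries over 40 CPM of Ctrb1 0 of the 3 were called. The immunoglobulin gene Ighm, which rose by 1.11 ± 0.26, also had its highest value (63.3 CPM) in the knockout library of series 5 at ZT4.

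**Figure D3:**
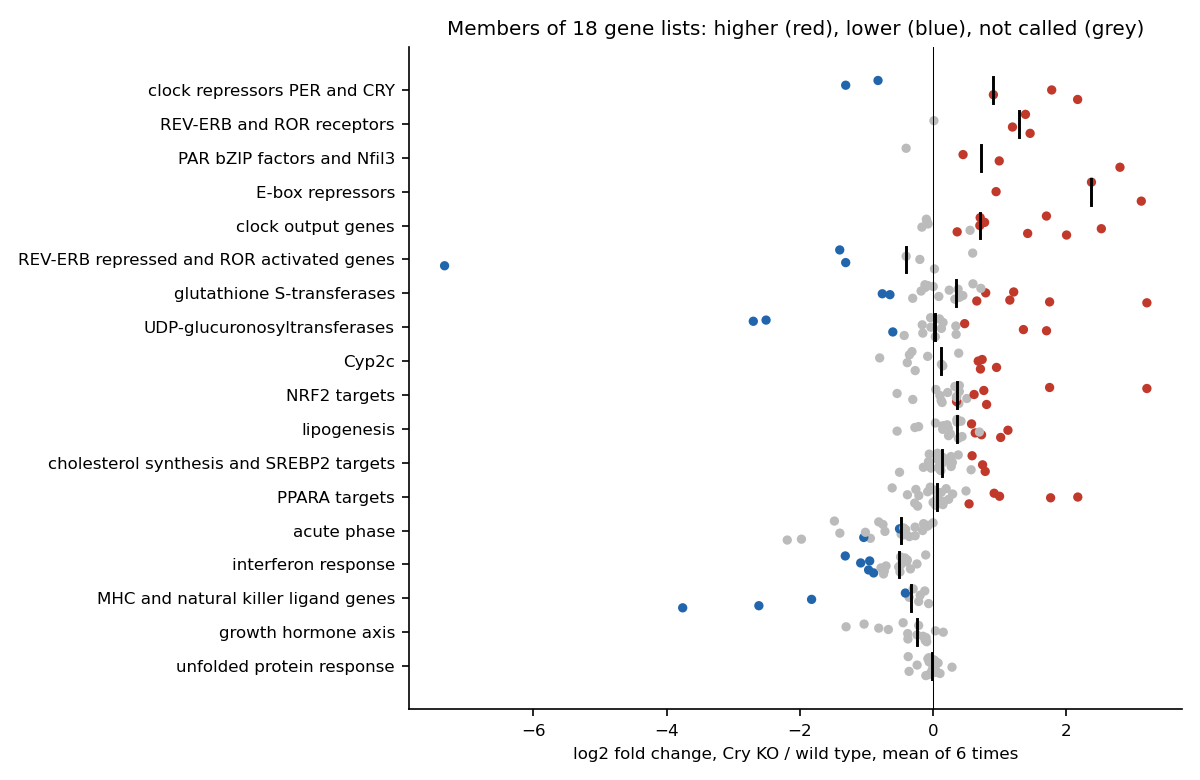
Log2 fold change in mean level (horizontal axis, knockout over wild type) of each tested member of 18 gene lists (vertical axis), with red points higher, blue points lower and grey points not called, and black ticks at the list medians. All 20 interferon genes lie below 0, while the lists of E-box repressors and clock output genes have medians of 2.38 and 0.70; the leftmost point is Npas2, whose fitted value rests on 2 knockout counts.

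Time by time, the test with 2 libraries a group called 110 genes at ZT0 (0.697%), 189 at ZT4 (1.2%), 142 at ZT8 (0.9%), 260 at ZT12 (1.65%), 33 at ZT16 (0.209%) and 57 at ZT20 (0.361%). In all 582 genes were called at 1 time or more, and 272 of them were not called in mean level. The count of 582 fell to 109 without wild-type series 6, to 164 without knockout series 5 and to 328 without knockout series 3. Differences between the counts at different times were not tested, and ZT4 and ZT12 hold the shallow knockout libraries. The wild-type library rich in Saa1 is also at ZT12, and the knockout libraries rich in Ctrb1 are at ZT4 and ZT8. Leaving any of them out leaves that group without a replicate at that time.

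Some genes passed the test at single times and not in mean level. Their ZT12 values include the wild-type library rich in Saa1. Por, the reductase that feeds electrons to all microsomal P450 enzymes, averaged 142 CPM in wild type and 600 CPM in knockout at ZT4 (2.08 on the log2 scale), whereas at ZT12 its means were 872 and 425 CPM. Dtx4, a ubiquitin ligase gene, was lower at ZT0 (−1.72) and ZT4 (−1.84) and higher at ZT12 (1.99). Cldn1, a tight junction gene, was higher at ZT12 (2.38), and so was the phosphodiesterase gene Pde9a (1.68). At ZT16 the transcription factor gene Zbtb16 fell by 3.95, from 48.1 to 3.1 CPM, and Il6ra, the interleukin 6 receptor gene, fell by 2.01, from 113 to 28 CPM. At ZT20 Sdsl, a serine dehydratase-like gene, fell by 2.12, from 47.4 to 10.9 CPM, and the synaptotagmin gene Syt1 rose by 2.27.

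Rhythms were fitted as a 24 h cosine on the log2 scale, and a gene was called rhythmic at an adjusted p under 0.05 and a fitted swing from trough to peak (its range) of 0.5 log2 or more. By this rule 2985 genes (18.9%) were rhythmic in wild type and 1046 (6.63%) in knockout. Those rhythmic in both were 525 (3.33%), which is 17.6% of the wild-type genes and 50.2% of the knockout genes. Counts of rhythmic genes in the lists below are to be read against the shares over all genes tested. Single series weighed heavily, since leaving one out leaves 1 library per time in that group. The wild-type count was then 535 (without series 6) or 1669 (without series 9), and the knockout count 77 (without series 3) or 61 (without series 5). The 525 became 35, 34, 91 and 305 without knockout series 3, knockout series 5, wild-type series 6 and wild-type series 9. Without the libraries rich in Ctrb1 the knockout count was 422 and the shared count 239.

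A difference between the genotypes in the rhythm itself was called for 419 genes (2.66%), with the smaller range in knockout for 339 and the larger for 80. Of the 419, 300 were called rhythmic only in wild type, 30 only in knockout, 61 in both and 28 in neither. The count was 96 to 136 with 1 of the 4 series left out, 227 without the libraries rich in Ctrb1 and 64 without ZT4, ZT12 and the shallow library at ZT0.

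No gene of the activator, PER and CRY, PAR bZIP or E-box repressor lists was called rhythmic in knockout, while in wild type all were. The range of Dbp was 6.58 log2 with a peak at ZT10.3 in wild type and 0.18 in knockout (adjusted p of the difference 1.33e-08). Nr1d1 had 6.04 in wild type and 0.55 in knockout (1.52e-08 for the same test). Arntl had ranges of 4.73 and 0.45 (0.00084). For Clock, Hlf, Bhlhe40, Cry2 and Npas2 the difference of rhythm did not pass the test, with adjusted p from 0.0849 to 0.426.

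Of the 13 clock output genes 12 were rhythmic in wild type and 2 in knockout, and 7 differed in rhythm. Nampt had ranges of 2.31 and 0.22 (adjusted p of the difference 1.13e-05) and Tsc22d3, a glucocorticoid-induced zipper gene, 2.39 and 0.25 (0.016). Outside the clock lists the smallest p belonged to Clpx, whose product unfolds proteins in the mitochondrial matrix, with a range of 2.49 peaking near ZT0.199 in wild type and 0.30 in knockout (1.36e-07). Its wild-type means went from 354 CPM at ZT4 to 68.2 CPM at ZT12, and its knockout means stayed between 93.3 and 147 CPM. Lingo4 (3.47 and 0.73), Smagp (1.59 and 0.58) and Nmrk1, a nicotinamide riboside kinase gene (1.68 and 0.44), also had smaller ranges in knockout.

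Metabolic genes gave a mixed picture. Gys2, the liver glycogen synthase gene, had a range of 1.90 in wild type and 0.27 in knockout (adjusted p of the difference 0.000622), and Asl, the argininosuccinate lyase gene of the urea cycle, 1.80 and 0.12 (0.00345). Lpin1, a phosphatidate phosphatase gene, kept a rhythm but at another time. Its range was 4.98 with a peak at ZT13.6 in wild type and 3.36 with a peak at ZT4.45 in knockout (7.82e-05), so that its means at ZT4 were 36.8 and 661 CPM and at ZT12 1087 and 105 CPM. The glucocorticoid target Fkbp5 went from a range of 3.77 to 1.08 (0.000886).

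Lipogenesis was the list with the most rhythmic genes in knockout, 13 of 22 against 8 in wild type and 4 in both. Over all genes tested the shares were 6.63% in knockout, 18.9% in wild type and 3.33% in both. The median range of the list was 0.85 in wild type and 1.82 in knockout. The cholesterol list had 1 of 24 rhythmic in wild type and 6 in knockout. Rhythm counts by list were not taken without the libraries rich in Ctrb1, where 422 genes in all were rhythmic in knockout. Only 3 of the lipogenesis genes and 0 of the cholesterol genes passed the test of a difference in rhythm, so for most of them a change was not shown. Pklr, the liver pyruvate kinase gene, was one that did, with ranges of 0.60 and 2.00 (adjusted p 0.0171), and its knockout means were highest at ZT0 (454 CPM) and lowest at ZT16 (108 CPM). Acss2, which makes acetyl-CoA from acetate, had ranges of 1.08 and 2.49 and did not pass (0.288). Fasn had 1.52 and 2.61 (0.766) with peaks at ZT20.3 and ZT21.

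Heat shock and cold-inducible genes were rhythmic in both genotypes in 7 cases of 15 (3.33% over all genes tested). In wild type 10 were called (18.9% over all genes) and in knockout 8 (6.63%). None of the 15 passed the test of a difference. Dnaja1, a chaperone gene, had a range of 1.29 with a peak at ZT17.3 in wild type and of 1.26 at ZT17.1 in knockout. Hspb1, a small heat shock protein gene, had 2.92 at ZT20.6 and 2.90 at ZT16.7, and Cirbp, the cold-inducible RNA binding protein gene, 1.15 at ZT6.29 and 1.59 at ZT6.7. The chaperone genes Hsp90aa1 and Hsph1 peaked at ZT20.2 and ZT19.6 in wild type and at ZT17.9 and ZT17.2 in knockout, so the near-equal peaks of Dnaja1 do not stand for all chaperones.

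**Figure D4:**
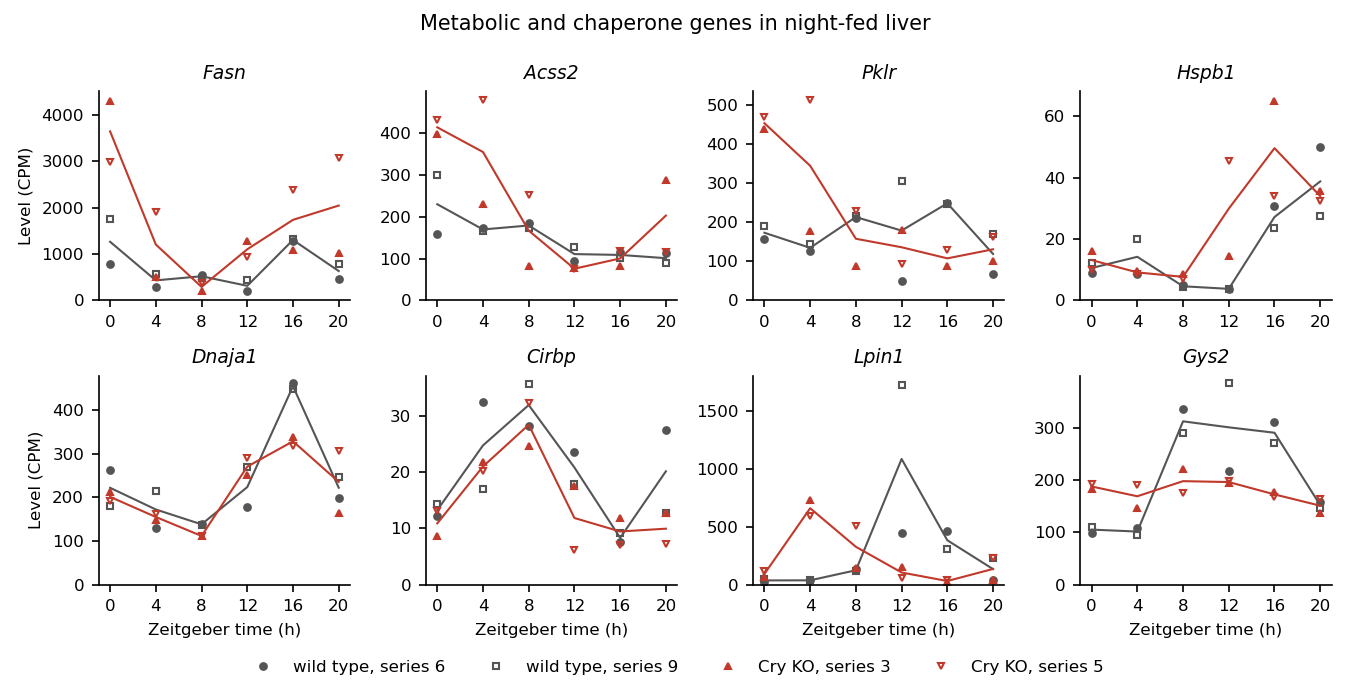
Level in CPM (vertical axes) of 8 metabolic, heat shock and cold-inducible genes against zeitgeber time in h (horizontal axes), with 1 point per library and lines through the means, wild type grey and knockout red. Dnaja1 peaks at ZT17.3 in wild type and ZT17.1 in knockout, and Hspb1 at ZT20.6 and ZT16.7. Gys2 has a fitted range of 1.90 log2 in wild type and 0.27 in knockout, and Lpin1 peaks at ZT13.6 and ZT4.45.

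The 525 genes rhythmic in both genotypes peaked earlier in the knockout in 456 cases and later in 69. The median shift was −2.39 h (quartiles −3.56 and −1.11 h), and 325 peaked within 3 h of the wild type. Fitted series by series, each knockout series led each wild-type series, by medians of 1.99 to 2.65 h, whereas wild-type series 9 lagged series 6 by 0.584 h and knockout series 5 lagged series 3 by 0.151 h. The shift was −1.61 h without knockout series 3, −3.16 h without wild-type series 6 and −1.64 h without ZT4, ZT12 and the shallow library at ZT0. The range was larger in knockout for 317 of these genes and smaller for 208.

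**Figure D5:**
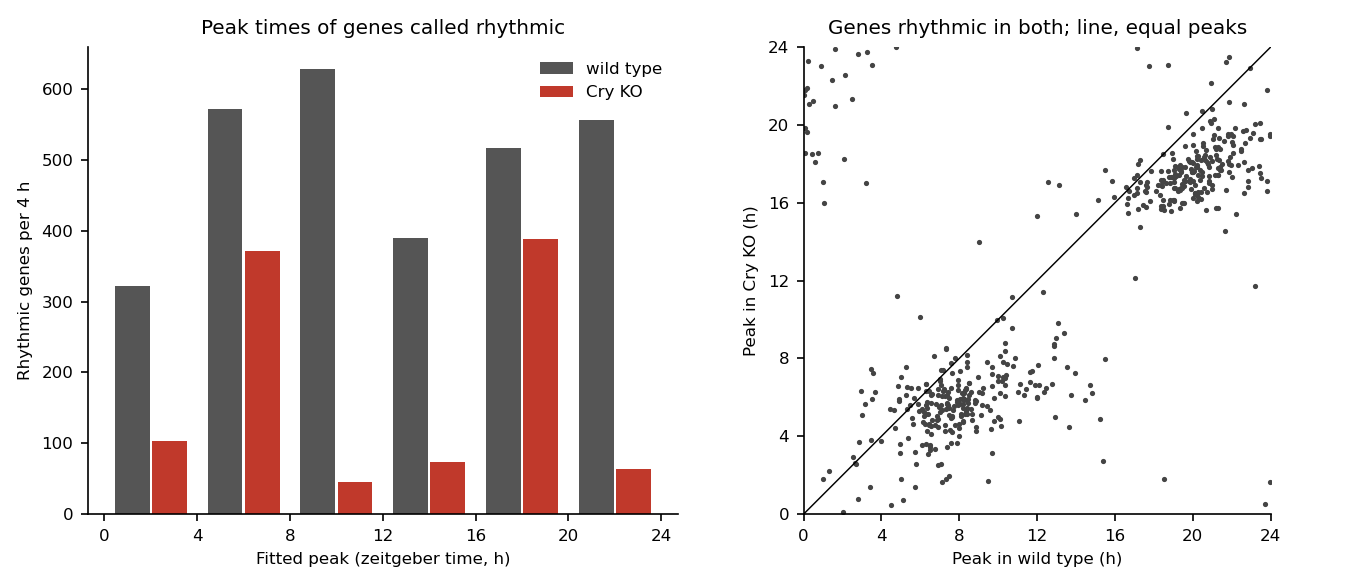
Left, number of rhythmic genes (vertical axis) by fitted peak time in bins of 4 h (horizontal axis) for wild type (2985 genes) and knockout (1046 genes); right, peak time in knockout against peak time in wild type in h for the 525 genes rhythmic in both, with the line of equal times. Most points lie below the line, with a median shift of −2.39 h.

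Peak times were spread over the day in wild type, with 322 to 628 genes in each bin of 4 h. In the knockout they gathered in a pair of bins, with 371 genes from ZT4 to ZT8 and 389 from ZT16 to ZT20, and 45 to 103 in each of the others. The knockout count was 422 without the libraries rich in Ctrb1 (series 5 at ZT4 and ZT8), and both knockout libraries at ZT4 were shallow. Peak times were not binned again without these libraries, so how far the bins rest on them was not tested.

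The knockout effect was also measured in ad libitum fed mice, with separate libraries of both genotypes. There 5205 genes (33%) were called in mean level, and 596 of them were among the 994. The 2 ad libitum knockout series differed, with TMM scaling factors of 0.723 to 0.862 in series 2 and 1.02 to 1.10 in series 1. The series 2 library at ZT20 held only 2694543 counts. How far the 5205 rests on either series was not tested. The fold changes of 6 genes were set side by side. Smpdl3b changed by 5.09 under night feeding and 5.15 ad libitum, Cyfip2 by 4.73 and 4.17, Nat8 by 2.68 and 2.43, Ddah1 by −2.30 and −2.38, Dbp by 2.80 and 3.49 and Ciart by 3.12 and 3.42. None of these 6 passed the test of a difference between regimens (adjusted p from 0.131 to 0.94). Such a difference was called for 999 genes (6.33%), 134 with a higher (0.85%) and 865 with a lower effect (5.48%) under night feeding. This count rests on single series. It was 0 without knockout series 2 of the ad libitum group, 7488 without its series 1, 0 without night-fed knockout series 5, 3 without night-fed wild-type series 6 and 572 without night-fed knockout series 3. It was 515 without the libraries rich in Ctrb1, and 0 without ZT4, ZT12 and the shallow library at ZT0 and in limma-voom.

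Under the same feeding, the Bmal1 knockout changed 3244 genes against its own wild type (20.6%). The effect of the Cry knockout differed from that of the Bmal1 knockout for 2399 genes (15.2%), 1165 with the higher value in the Cry line (7.39%) and 1234 with the lower (7.82%), and 735 were called with the series as a random effect. Without ZT4, ZT12 and the shallow library at ZT0 the count was 1394. Nat8 changed by 2.68 in the Cry line and by −6.12 in the Bmal1 line (difference 8.80 ± 0.39, adjusted p = 1.65e-24), and Smpdl3b by 5.09 and −1.68 (6.77 ± 0.33). Chic1 went the opposite way, with −2.48 and 2.46. Cry1 had −1.31 and 1.86, but it is itself knocked out in the Cry line. Dbp rose by 2.80 and fell by 2.10, and Ciart rose by 3.12 and fell by 2.20. By contrast Cyp2b9 rose by 5.53 and 5.35 (difference 0.18 ± 1.23, adjusted p = 0.961), an SE that leaves room for a large difference.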

How the data were processed

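The authors deposited 1 table of raw counts per Ensembl gene and library. The submitters' processing notes name STAR 2.4.0i and the mm10 genome. For the counting step, the program, strand setting and annotation were not given in the sources used here. Per the labels' protocols, libraries came from 250 ng of total RNA with a stranded mRNA kit and 11 PCR cycles. Gene symbols were matched through GENCODE M21 for 55154 of 55421 identifiers.

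The counts of all 96 libraries were fitted with edgeR 4.0.16 in R 4.3.3 (TMM scaling, a mean per group and time, quasi-likelihood F test), which gives 1 shared estimate of spread. The filterByExpr filter (minimum count 10, total 15) kept 15772 genes. Mean-level effects weight the 6 times equally, and adjustment was over all genes tested. Each SE is approximate, being the absolute log2 fold change divided by the square root of the F statistic. Rhythms used a 24 h cosine per group. The models were tested on simulated data. The simulated libraries were drawn independently with no effect of the series, so they cannot show how the p-values behave where series differ. Alternatives were RLE scaling, other filters, fewer groups, DESeq2 1.42.0, limma-voom (limma 3.58.1), the series as a random effect and fits without single series, shallow times or libraries that stood apart. Leaving out libraries by content, by depth or by ad libitum series was chosen after seeing the data, as were limma-voom and the random effect for the differences of effects.

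Genes named were the clock lists, the 15 highest and 15 lowest fold changes among called genes (at least 5 CPM in the higher group, same direction at all 6 times), up to 4 called members of each of 55 lists, and those with the smallest p in the rhythm, time and effect differences. Acss2, Pklr, Gys2, Asl, Fkbp5, Hspb1, Dnaja1, Hsp90aa1, Hsph1, Cirbp, Tsc22d3 and G6pc as rhythm examples, and the genes of the 6 side by side values, were chosen after their values were seen. Members and lists were chosen with earlier results of these data known. Y-linked genes were left out. A few genes that met these rules were left out of the text.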

Additional observations from a re-analysis of the deposited data

Results flagged for a closer look

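The effect of the Cry knockout differed between night feeding and ad libitum feeding for 999 genes by edgeR (quasi-likelihood, Benjamini-Hochberg adjusted), which tests the difference itself. The count was 0 without ad libitum knockout series 2 and 7488 without its series 1, so the values that follow hold for the fit of all libraries. Each is the night-fed minus the ad libitum log2 effect.

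The effect was higher under night feeding for Ctrl (3.87) and Cela2a (3.42), both pancreatic enzyme genes, and for the complement gene C4a (2.70), Zfp979 (1.93), Fasn (1.65), Acly (1.22), Ighm (1.21), Susd4 (1.18) and Lss (0.91). It was lower for Gm2788 (−1.97), Ugt2b37 (−1.81), 4930481A15Rik (−1.25), S100a13 (−1.14), Apoa1 (−1.04), Adck5 (−1.01), Fgb (−0.73), Ces3b (−0.70), Nfil3 (−0.68), 2810013P06Rik (−0.68), Wrnip1 (−0.59), Tspan4 (−0.54) and Crtc2 (−0.30). For Fasn the effect was 1.01 under night feeding and −0.64 ad libitum (adjusted p of the difference 0.0174). Night-fed knockout libraries rich in Ctrb1, another pancreatic enzyme gene, enter the values of Ctrl and Cela2a. A single library held 79.35% of the night-fed knockout sum of Cela2a, and the mean night-fed effect on Ctrl was 1.97 with the 2 libraries and −0.64 without them. Neither gene was called in mean level without them.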

How the results depend on the processing

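The cause was not tested for any value below, except that fits without a series or times hold fewer samples. Mean-level calls (994) were 162 with the series as a random effect, 430 without ZT4, ZT12 and the shallow library at ZT0, 599 without the 2 libraries over 40 CPM of Ctrb1, and 377 to 1128 without a series. Of 129 named genes called, 129 were called by DESeq2 and RLE scaling, 114 by limma-voom and 46 with the random effect. Only Ctrl reversed (−1.11 to 2.52 without a series), to −1.11 without knockout series 5 and to −0.64 without the libraries rich in Ctrb1. Calls at single times (582) were 1797 without a filter and 109 to 604 without a series. Genes rhythmic in both (525) were 1076 without a filter, 249 without the shallow times, 239 without the Ctrb1 libraries and 34 to 305 without a series. Wild-type rhythms (2985) were 1244 without the shallow times and 535 to 2999 without a series. Knockout rhythms (1046) were 1735 without a filter, 422 without the Ctrb1 libraries and 61 to 1081 without a series. Rhythm differences (419) were 274 from the 24 libraries alone, 232 with cell means for time, 1367 without a filter, 64 without the shallow times, 227 without the Ctrb1 libraries and 96 to 136 without a series. The peak shift was −1.64 h without the shallow times and −3.16 to −1.61 h without a series. The difference between regimens (999) was 1 from the 48 libraries of the Cry line, 0 in limma-voom with and without the random effect and 0 without the shallow times, with 3699 genes at an unadjusted p under 0.05 in edgeR and 1351 calls by DESeq2. It was 1549 without a filter, 515 without the Ctrb1 libraries and 0 to 7488 without a series. The difference from the Bmal1 effect (2399) was 735 with the random effect, 1394 without the shallow times, 2051 without the Ctrb1 libraries and 1817 to 2154 without a series. Without the library rich in Saa1, mean-level calls were 873, wild-type rhythms 2317, knockout rhythms 1096 and genes rhythmic in both 477. Rhythm differences were then 372, differences between regimens 823 and differences from the Bmal1 effect 2431.

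No paired analysis was possible because Cry knockout (series 3 and 5) and wild type (series 6 and 9) share no number. In the Bmal1 line, same-numbered libraries deviated together with correlations of 0.0704 to 0.237, of which 3 of 6 were over 0.1, so whether the numbers pair them was not settled. The replicate block there gave 2482 calls for the difference from the Bmal1 effect. Low-count genes and the shallow knockout libraries at ZT4 and ZT12 limit the precision.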
